A study of Homo sapiens with 4 samples.

Results

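The 2 empty-plasmid control libraries of the series were compared with each other: 1 RNA-seq library of HeyC2 cells and 1 of SKOV3 cells, out of 4 libraries in all. Both are established human ovarian cancer lines, labelled wild-type in genotype, transfected with 3 μg of the empty form of the pCMV6 plasmid and kept in medium with 400 μg/ml Geneticin. The other 2 libraries come from the same lines given full-length TET1 on that plasmid, and they serve here only as a second pair of libraries of the same lines, not as replicates of the controls. Whether the selected cells were clones or pools is not given in the sources used here. The comparison covered every gene symbol listed for both lines, 26506 in all, and asked how the 2 control lines differ in lineage, surface and pathway genes.

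SKOV3 and HeyC2 are both used as models of epithelial ovarian cancer, a disease whose common forms are thought to arise from Müllerian epithelium and often keep the transcription factor PAX8. Carcinoma lines range from an epithelial state, held by E-cadherin, EpCAM, claudins and desmosomes, to a mesenchymal state with vimentin, fibronectin and the ZEB repressors, which bind E-box sequences in epithelial promoters. SKOV3 is widely used as a line with an amplified ERBB2 (HER2) gene.

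Levels are given as fragments per kilobase of transcript per 1000000 mapped reads (FPKM), the deposited unit, always with the HeyC2 control first and the SKOV3 control second. Differences are log2 ratios of HeyC2 over SKOV3 after 1 was added to each value, and a gene was counted as different when these sums differed at least 2-fold. A symbol entered the counts when its mean over both controls was at least 1 FPKM, which 12488 symbols reached. A gene could pass that filter through its level in 1 line alone, and one listed at 0 in the other line then had to differ, so the counts are partly set by the filter: 538 of the genes counted as higher in HeyC2 were below 1 FPKM in SKOV3, and 938 of those higher in SKOV3 were below 1 FPKM in HeyC2. With 1 library per line no test was possible, so every difference below is a difference between these 2 libraries, whose replicate error is unknown. In each control library a transcript of 2 kb at 1 FPKM corresponded to an estimated 13.2 to 13.7 fragments, so levels under 1 FPKM rest on few fragments. A gene listed at 0 may be a failed estimate, and no fold is given against a 0.

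A ratio of 2-fold or more toward HeyC2 was found for 1741 of the 12488 genes (13.9%), and one toward SKOV3 for 3001 (24.0%). Counts within the gene groups below are to be read beside these shares. The median log2 ratio of all genes was -0.27, so the centre of the distribution lay toward SKOV3. Measured from that median, 2323 genes were higher in HeyC2 and 2219 in SKOV3, which moved the HeyC2 share of all different genes from 36.7% to 51.1%. Medians of gene groups are therefore given as measured and also after -0.27 was subtracted, called the centred median. GAPDH, the glycolytic enzyme often taken as a constant reference, stood at 5417 against 2248 FPKM in the controls and at 1675 against 1671 FPKM in the TET1 libraries, where the lines did not differ 2-fold. In the TET1 libraries, compared in the same direction, 1001 of the 1741 genes and 1990 of the 3001 genes were again at least 2-fold higher in the same line, beside 11.2% and 24.5% of all genes in those libraries. The opposite 2-fold difference was found for 26 and 23 genes.

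**Figure D1:**
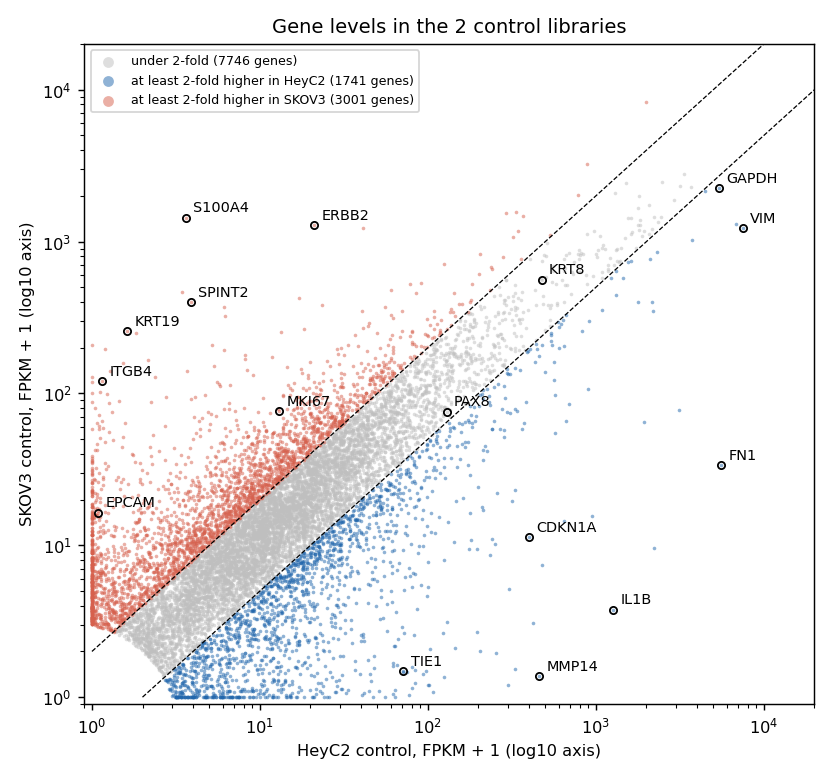
Levels of 12488 genes in the HeyC2 control (horizontal axis) and the SKOV3 control (vertical axis), both as FPKM + 1 on log10 axes. The 2 dashed lines mark a 2-fold difference. FN1 and VIM lie on the HeyC2 side, ERBB2 and KRT19 on the SKOV3 side, and PAX8 and KRT8 between the lines.

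In HeyC2 the largest ratio was that of IL1B, the inflammatory cytokine interleukin 1 beta, at 1271 against 2.76 FPKM. MMP14, a membrane-bound matrix protease, followed at 457 against 0.37 FPKM, and WNT5B, a noncanonical Wnt ligand, at 298 against 0.21 FPKM. FN1, the matrix protein fibronectin, was among the most abundant transcripts of HeyC2 at 5557 FPKM and stood at 32.6 FPKM in SKOV3. The decoy receptor TNFRSF6B reached 2222 FPKM, with 8.6 in SKOV3. The others of the 15 largest were MT1L, SRGN, IGFBP4, UQCRH, HCLS1, IL13RA2, RAC2, FKBP10, SLC2A3 and MT1E. HCLS1, RAC2 and SRGN are best known from blood cells, and their levels were 106 against 0.08, 100.3 against 0.21 and 420.3 against 2.08 FPKM, whereas the leukocyte markers PTPRC, CD3E and CD14 did not reach the 1 FPKM limit.

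In SKOV3 the largest ratio was that of S100A4, a calcium-binding protein tied to cell motility, at 2.61 against 1431 FPKM. KRT19, a simple epithelial keratin, followed among the first genes at 0.62 against 255 FPKM, and ITGB4, the hemidesmosome integrin, at 0.15 against 119.5 FPKM. The peroxide scavenger PRDX2 (0 against 207 FPKM) and the phosphatase inhibitor PPP1R1B (0 against 128 FPKM) were listed at 0 in HeyC2. The others of the 15 were C1QL1, IGFBP3, EGR1, PLPP2, FLJ26245, DHRS2, SPINT2, OCIAD2, PTGIS and EDN1. In the TET1 libraries all 15 HeyC2 genes and 14 of the 15 SKOV3 genes kept at least a 2-fold difference the same way. The exception was KRT19, at 1.59 against 0.46 FPKM.

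The label of both samples, ovarian cancer cells, was set against lineage markers. PAX8, the Müllerian lineage factor, was abundant in both lines at 128 against 74.6 FPKM, whereas WT1, the factor typical of serous tumours, was listed at 0 in both, and MUC16, which encodes CA125, was at 0 against 0.05 FPKM. Among the 28 ovarian and Müllerian genes examined, 14 passed the level filter, 8 of them higher in SKOV3 and 2 in HeyC2, with a median log2 ratio of -2.96 (centred -2.7). The value rests on the filter, and over all members with a value in either line it was -0.35. SKOV3 had the folate receptor FOLR1 (0.17 against 58.2 FPKM), the protease inhibitor SLPI (7.15 against 178 FPKM), and SOX17 (7.01 against 79.4 FPKM), a factor active in Müllerian and endodermal tissue. The oestrogen receptor ESR1 (0 against 6.16 FPKM) was listed at 0 in HeyC2. The HeyC2 side held SOX9 (20.1 against 1.46 FPKM) and mesothelin, MSLN (46.5 against 10.3 FPKM).

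Markers of cells other than carcinoma cells were low in both libraries, with named exceptions. Of 13 leukocyte markers only CD68, a lysosomal protein, exceeded 1.96 FPKM, and the summed list was between 15.2 and 57.9 FPKM. Of 10 fibroblast and smooth muscle markers only ACTA2 exceeded 1.54 FPKM (39.2 against 1.33 FPKM). Endothelial genes were uneven in HeyC2: TIE1 (70.5 against 0.48 FPKM) and CDH5 (18.9 against 0.11 FPKM), a receptor and the cadherin of endothelial junctions, were high, and the other 6 markers, PECAM1, VWF and KDR among them, stayed at or below 0.60 FPKM in both lines. The TET1 libraries showed the same for TIE1 (108 against 0.20 FPKM) and CDH5 (94.6 against 0.19 FPKM). Of the mesothelial markers PDPN (92.4 against 0.43 FPKM) and BNC1 (10.1 against 0 FPKM) belonged to HeyC2 and UPK3B (0.10 against 57.1 FPKM) to SKOV3. Of the granulosa and theca markers FOXL2 (9.9 against 0.10 FPKM) was on the HeyC2 side and AMH (2.56 against 33.2 FPKM) on the SKOV3 side. Their part in the differences below was not tested.

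Epithelial genes were higher in SKOV3. Of 45 junction genes and epithelial regulators, 32 passed the filter. At least 2-fold higher in SKOV3 were 25 of these (78.1%), beside 24.0% of all genes, against 1 in HeyC2. The median log2 ratio was -2.4 (centred -2.13). Of those 25, 24 were again higher in SKOV3 in the TET1 libraries. The protease inhibitor SPINT2 (2.89 against 397 FPKM), the surface glycoprotein CD24 (1.15 against 166 FPKM), the vesicle protein MAL2 (0.10 against 71.2 FPKM) and the junction protein plakoglobin, JUP (0.04 against 41.4 FPKM), had the largest ratios. EPCAM, an adhesion protein used to define carcinoma cells, was at 0.09 against 15.4 FPKM, the HeyC2 value corresponding to about 1 fragment. CDH1, which encodes E-cadherin, was listed at 0 in HeyC2 and was low in SKOV3 too, at 2.24 FPKM. The tight junction genes CLDN4 (0.98 against 24.2 FPKM) and CLDN3 (0.12 against 12.1 FPKM) and the desmosome gene DSP (3.06 against 68.9 FPKM) were also on the SKOV3 side. The exception was the tight junction gene CLDN1, the only member at least 2-fold higher in HeyC2, at 213 against 41.1 FPKM. TJP1 (13.7 against 14.2 FPKM), the scaffold ZO-1, differed less than 2-fold.

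The ZEB and SNAI repressors bind the E-box sequence CAGGTG. This sequence was searched on both strands in RefSeq promoter windows on GRCh38.p14, from 250 bases before to 50 bases after each gene start. It was held by 19 of the 26 epithelial genes with a window (73.1%), by 4 of 21 mesenchymal genes and by 24.1% of all 27305 genes in that table. A gene with several windows counted when any of them held the sequence. Of the epithelial genes higher in SKOV3, 11 of 16 held it (68.8%), a share not above that of the whole group. The single CLDN4 and VIM windows had no match. ZEB1, a mesenchymal gene with 7 windows that was higher in HeyC2, also held the sequence. 2 members with a match that were listed at 0 or below 1 FPKM in HeyC2 are shown by the 200 bases before their start, CRB3 (0 against 20.8 FPKM), a polarity protein, and ELF3 (0.14 against 22.4 FPKM), an epithelial transcription factor, with CAGGTG or its reverse complement in capitals.
CRB3 promoter, chr19:6464071-6464270, plus strand: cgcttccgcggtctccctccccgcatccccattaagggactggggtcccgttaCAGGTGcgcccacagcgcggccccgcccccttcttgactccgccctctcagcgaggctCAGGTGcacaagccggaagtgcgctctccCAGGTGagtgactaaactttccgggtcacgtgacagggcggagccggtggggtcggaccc
ELF3 promoter, chr1:202010387-202010586, plus strand: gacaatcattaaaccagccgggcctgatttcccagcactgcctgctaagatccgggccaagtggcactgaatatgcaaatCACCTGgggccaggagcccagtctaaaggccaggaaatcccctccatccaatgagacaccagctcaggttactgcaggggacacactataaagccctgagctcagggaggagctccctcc
In the bases shown CRB3 held the motif 3 times, at 147, 89 and 60 bases before the start, and ELF3 held it 1 time, 120 bases before the start. The matches describe the letters of the window and were not tested for binding.

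Mesenchymal genes were mostly higher in HeyC2. Of 22 that passed, 14 (63.6%) were higher in HeyC2 and 3 (13.6%) in SKOV3, beside 13.9% and 24.0% of all genes. The median log2 ratio was 1.2 (centred 1.47). VIM, the intermediate filament vimentin, was the gene of this group with the highest level in HeyC2, at 7496 against 1223 FPKM, a 6.13-fold difference. The repressors ZEB1 (22.7 against 9.14 FPKM), ZEB2 (6.95 against 0.39 FPKM) and SNAI2 (39.9 against 17 FPKM) and the matrix genes SPARC (249 against 9.27 FPKM) and FBN1 (24.3 against 5.87 FPKM) were on the same side. TWIST1 (24.1 against 14 FPKM) and N-cadherin, CDH2 (26.9 against 21.1 FPKM), differed less than 2-fold. 3 genes of this group went the other way: S100A4, named above, and the contractile genes TAGLN (0.58 against 62.7 FPKM) and TPM2 (7.17 against 168 FPKM). SKOV3 thus had vimentin at 1223 FPKM beside the epithelial genes listed above.

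**Figure D2:**
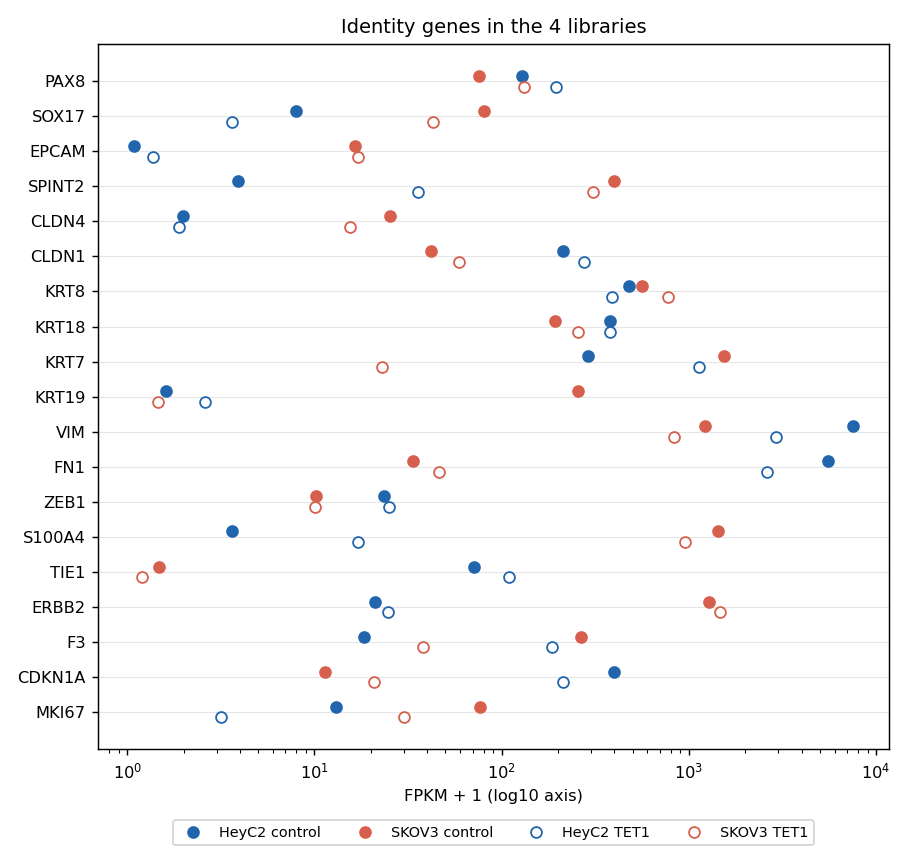
Levels of 19 identity genes in all 4 libraries, as FPKM + 1 on a log10 axis. Filled circles are the control libraries and open circles the TET1 libraries with the GAPDH scaling removed. For VIM, FN1 and TIE1 both HeyC2 libraries lie to the right of both SKOV3 libraries, and for ERBB2, EPCAM and SPINT2 to the left. For KRT7, KRT19 and F3 the 2 SKOV3 libraries lie apart, as do the 2 HeyC2 libraries for KRT7 and F3.

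Keratins, the filaments of epithelial cells, did not follow 1 direction. KRT8 (476 against 559.9 FPKM) and KRT18 (378 against 193 FPKM), the simple epithelial pair, were abundant in both lines and differed less than 2-fold. KRT7 was higher in the SKOV3 control at 289.7 against 1537 FPKM, as were KRT19, KRT80 (12.8 against 95.2 FPKM) and KRT5 (0 against 15.6 FPKM), and KRT15 (6.55 against 1.18 FPKM) was higher in HeyC2. The TET1 libraries held KRT7 at 1125 against 22 FPKM, in the reverse order, and of the 5 keratins past 2-fold only KRT15 and KRT80 were again at least 2-fold apart the same way, at 7.06 against 0.45 and 37.6 against 138 FPKM. KRT5 was at 0 against 0.42 FPKM there.

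The genes of the matrix and its receptors divided by member. Of 26 collagens, laminins and other basement membrane genes, 11 (42.3%) were higher in HeyC2 and 7 (26.9%) in SKOV3, beside 13.9% and 24.0% of all genes. HeyC2 had more of the collagen VI chains COL6A1 (98.7 against 4.34 FPKM) and COL6A2 (209.6 against 16.9 FPKM) and of the laminin chain LAMB3 (689 against 83.9 FPKM). SKOV3 had more of COL18A1 (5.11 against 367 FPKM), NID2 (1.22 against 43.4 FPKM), the proteoglycan HSPG2 (4.13 against 71.8 FPKM) and the collagen IV chain COL4A2 (53.2 against 161 FPKM). Among 14 integrin subunits, 6 (42.9%) were higher in HeyC2 and 2 (14.3%) in SKOV3, beside 13.9% and 24.0% of all genes (median 0.78, centred 1.05). The HeyC2 side held ITGB3 (99 against 6.71 FPKM) of the vitronectin receptor, ITGA2 (22.7 against 1.36 FPKM) of the collagen receptor and ITGA5 (69.8 against 8.34 FPKM) of the fibronectin receptor. The SKOV3 side held ITGB4 and ITGB8 (1.5 against 9.28 FPKM), and ITGB1 (304 against 339 FPKM), the shared beta chain, differed by less than 2-fold.

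Of 49 surface antigens that passed, 22 (44.9%) were higher in HeyC2 and 9 (18.4%) in SKOV3, beside 13.9% and 24.0% of all genes. The HeyC2 side was led by the peptidases ANPEP (301 against 4.17 FPKM) and MME (65.2 against 1.42 FPKM), the TGF-beta co-receptor ENG (79.4 against 0.58 FPKM) and the tetraspanin CD82 (69.3 against 1.88 FPKM). NT5E (212 against 16 FPKM), the enzyme CD73, and CD44 (383 against 86.3 FPKM), the hyaluronan receptor, were also higher in HeyC2. The neural adhesion molecule NCAM1 (11.9 against 0 FPKM) was listed at 0 in SKOV3. The SKOV3 side was led by CD24, tissue factor F3 (17.3 against 266 FPKM), the peptidase DPP4 (0.22 against 7.1 FPKM) and the proteoglycan SDC1 (21.4 against 117 FPKM), followed by the transferrin receptor TFRC (21.7 against 106 FPKM) and BSG (202 against 825 FPKM), the gene with the highest level of the group in SKOV3. F3 was reversed in the TET1 libraries, at 184 against 37.2 FPKM.

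Among matrix proteases and their inhibitors, 10 of 26 (38.5%) were higher in HeyC2 and 7 (26.9%) in SKOV3, beside 13.9% and 24.0% of all genes. Beside MMP14, HeyC2 had PLAU (1919.8 against 63.8 FPKM), the urokinase protease, its receptor PLAUR (109.6 against 11 FPKM), tissue plasminogen activator PLAT (58.8 against 6.76 FPKM) and the sheddase ADAM19 (64.3 against 0.64 FPKM). SKOV3 had MMP24 (0 against 13.3 FPKM), MMP15 (0.70 against 10.3 FPKM), MMP7 (0 against 2.67 FPKM) and CTSV (0.20 against 2.36 FPKM). The inhibitor TIMP2 (228 against 288 FPKM) was at a similar level in both.

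Of 19 receptor tyrosine kinases that passed, 8 (42.1%) were higher in SKOV3 and 2 (10.5%) in HeyC2, beside 24.0% and 13.9% of all genes, and 9 differed less than 2-fold. ERBB2, which lies at chr17:37844167-37886679 on GRCh37, was at 20.1 against 1282 FPKM, 63.8-fold higher in SKOV3 (95% counting interval 59.1 to 69), and at 23.8 against 1464 FPKM in the TET1 libraries. The fibroblast growth factor receptors FGFR4 (0 against 10.6 FPKM) and FGFR3 (0 against 9.72 FPKM) were listed at 0 in HeyC2, and MST1R (0.61 against 11.5 FPKM) was on the same side. The collagen receptor DDR2 (22.7 against 0.19 FPKM) and the ephrin receptor EPHA4 (2.58 against 0.27 FPKM) were higher in HeyC2. EGFR (86.8 against 45.8 FPKM), MET (23.4 against 25.8 FPKM), AXL (96.2 against 109 FPKM) and EPHA2 (265 against 184 FPKM) differed less than 2-fold. Among 27 ligands, 13 (48.1%) were higher in HeyC2 and 9 (33.3%) in SKOV3, beside 13.9% and 24.0% of all genes. The HeyC2 ligands included the activin chain INHBA (128 against 2.11 FPKM), midkine MDK (97.5 against 3.61 FPKM), PDGFB (33.9 against 2.23 FPKM) and connective tissue growth factor CTGF (568 against 96.8 FPKM). The 9 higher in SKOV3 included GDF15 (3.92 against 74.5 FPKM), ANGPTL4 (0.08 against 14.4 FPKM), FGF18 (2.31 against 26.9 FPKM) and FGF2 (4.66 against 40.5 FPKM).

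The neighbours of ERBB2 on 17q12 were read in order along the chromosome. Of 19 genes of the region that passed, 10 were higher in SKOV3 and 1 in HeyC2. The SKOV3 excess covered the run PPP1R1B, STARD3 (28.5 against 155 FPKM), TCAP (0.17 against 4.27 FPKM), PGAP3 (3.42 against 51 FPKM), ERBB2, MIEN1 (84.1 against 458 FPKM) and GRB7 (0.21 against 31 FPKM), whose members lie next to each other, with PNMT among them below the level filter at 0 against 1.94 FPKM. Outside it the ratios were smaller, with MED1 (13.6 against 29.9 FPKM) and CDK12 (11.8 against 26 FPKM) on one side, PSMD3 (118 against 303 FPKM) on the other, and ORMDL3 (51.2 against 42.9 FPKM) and MED24 (35.5 against 37.4 FPKM) under 2-fold. CSF3 (62.3 against 0 FPKM), the cytokine G-CSF, was the single gene of the region higher in HeyC2. All 10 SKOV3 genes of the region were again higher in SKOV3 in the TET1 libraries.

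**Figure D3:**
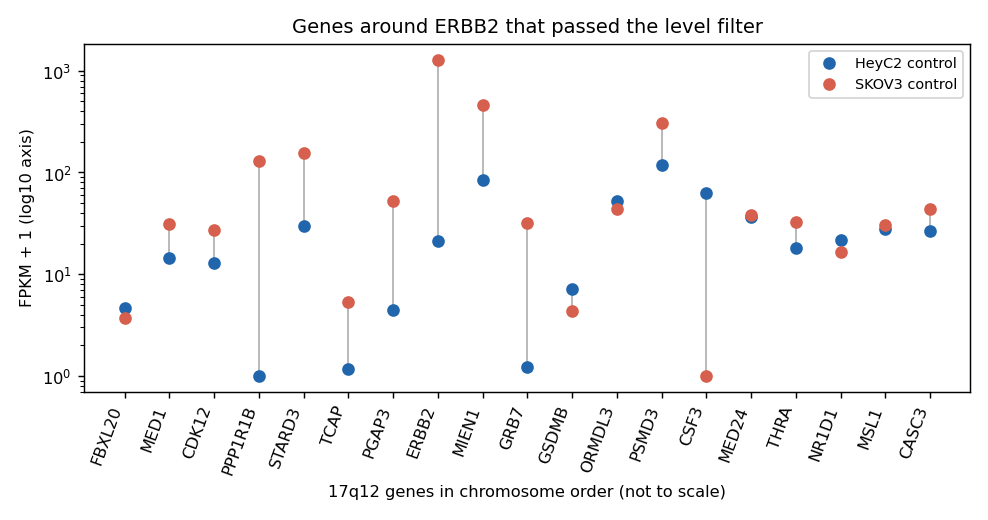
Levels of the 17q12 genes in chromosome order, as FPKM + 1 on a log10 axis, in the HeyC2 control (blue) and the SKOV3 control (red). The SKOV3 points lie above the HeyC2 points from MED1 to GRB7, with ERBB2 the highest at 1282 FPKM, and from GSDMB to CASC3 the lines differ by less than 2-fold except at PSMD3 and CSF3.

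On 9p21, the region of the cell cycle inhibitors, CDKN2A and CDKN2B were listed at 0 in all 4 libraries. The next gene, MTAP, an enzyme of methionine salvage at chr9:21802635-21937650 on GRCh37, was at 0 against 7.0 FPKM in the controls and 0 against 7.39 in the TET1 libraries. TUSC1 (0.06 against 14.9 FPKM) was also on the SKOV3 side and HACD4 (7.67 against 0.79 FPKM) on the HeyC2 side, and the other 7 of 10 genes differed less than 2-fold.

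All 40 mitosis and replication genes were at least 2-fold higher in SKOV3, beside 24.0% of all genes, by 2.12 to 13.4-fold on the FPKM + 1 scale, with a median log2 ratio of -1.92 (centred -1.65). Measured from the all-gene median, 38 of the 40 passed 2-fold. The replication genes GINS2 (1.73 against 35.6 FPKM), CDC45 (2.16 against 33.5 FPKM), MCM3 (16.9 against 89.6 FPKM) and RRM2 (15 against 116 FPKM), the cyclin CCNA2 (9.37 against 92.7 FPKM), the topoisomerase TOP2A (35.9 against 242 FPKM), the mitotic activator CDC20 (43.2 against 277 FPKM) and the proliferation marker MKI67 (12 against 75.6 FPKM) were among them. In the TET1 libraries all 40 had a ratio on the SKOV3 side, 31 of them past 2-fold. Among 21 G1 regulators, 9 were higher in SKOV3, including E2F1 (8.71 against 74.5 FPKM), CDKN2C (5.58 against 85.3 FPKM), CDC25A (0.83 against 10.7 FPKM) and CCNE2 (1.32 against 9.1 FPKM), and CDKN1A (397 against 10.3 FPKM), which encodes the cell cycle inhibitor p21, and cyclin D1, CCND1 (329 against 145 FPKM), were higher in HeyC2. The labels state neither the density nor the growth phase of the cultures.

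Promoters of mitotic genes often carry a CHR element, TTTGAA, downstream of CCAAT boxes, and both were searched on both strands in the same windows. TTTGAA was held by 16 of 33 mitosis and replication genes with a window (48.5%) and by 18.2% of all genes, and CCAAT by 25 of 33 (75.8%) and 39.7%. Both motifs were present together for 12 of the 33 genes (36.4%), against 7.26% of all genes. 3 examples are shown by the 120 bases before the start, with both motifs in capitals.
CDC20 promoter, chr1:43358861-43358980, plus strand: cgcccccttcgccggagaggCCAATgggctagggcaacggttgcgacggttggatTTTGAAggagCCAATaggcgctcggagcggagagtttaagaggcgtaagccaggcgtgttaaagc
CCNB2 promoter, chr15:59105026-59105145, plus strand: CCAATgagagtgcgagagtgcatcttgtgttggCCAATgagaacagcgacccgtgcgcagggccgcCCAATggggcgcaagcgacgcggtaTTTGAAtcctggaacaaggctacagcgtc
PLK1 promoter, chr16:23678769-23678888, plus strand: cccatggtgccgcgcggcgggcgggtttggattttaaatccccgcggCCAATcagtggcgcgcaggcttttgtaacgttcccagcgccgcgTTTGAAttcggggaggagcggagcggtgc
These genes encode the activator of the anaphase ligase, cyclin B2 and polo-like kinase 1, and stood at 43.2 against 277, 17.8 against 55.1 and 21.8 against 97.8 FPKM. TTTGAA lay 65 bases before the CDC20 start and 29 bases before the starts of CCNB2 and PLK1.

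**Figure D4:**
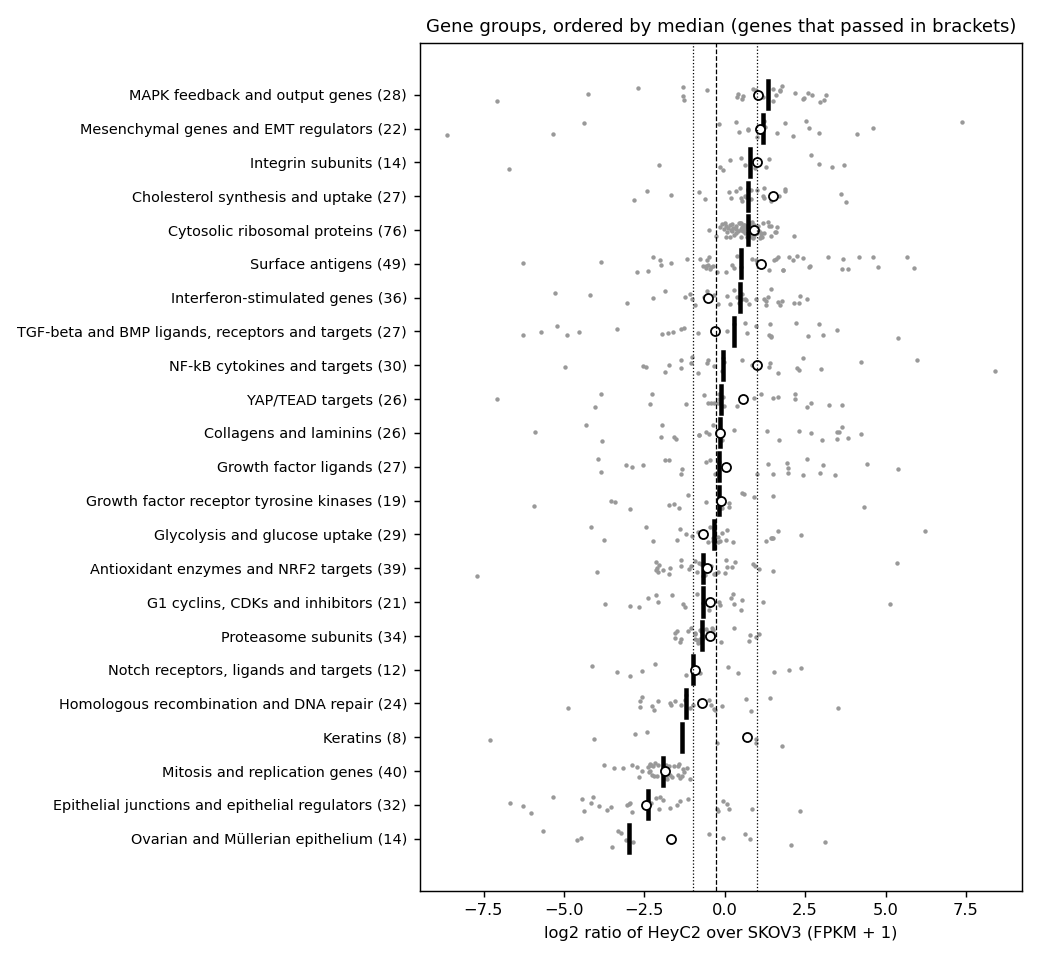
Log2 ratios of HeyC2 over SKOV3 for 23 gene groups, ordered by their median. Grey points are single genes that passed the level filter, black bars the median of a group, open circles its median in the TET1 libraries, the dashed line the median of all genes (-0.27) and dotted lines a 2-fold difference. The MAPK group lies farthest to the right of those shown, at 1.33, and the Müllerian, epithelial and mitosis groups farthest to the left.

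Of 24 DNA repair genes, 14 were higher in SKOV3, beside 24.0% of all genes, including BRCA1 (2.56 against 21.2 FPKM), FANCA (2.85 against 21.9 FPKM) and PARP1 (20.7 against 98.3 FPKM), and 2 in HeyC2, with ATM (13.7 against 4.55 FPKM) among these. In the TET1 libraries 9 of the 14 were again at least 2-fold higher in SKOV3. MGMT, which removes alkyl groups from guanine, was listed at 0 in both HeyC2 libraries and stood at 28.1 and 38.4 FPKM in the SKOV3 control and TET1 libraries. Of 23 apoptosis regulators, 6 were higher in HeyC2, such as BAX (286 against 92.6 FPKM) and the decoy receptor TNFRSF10D (46 against 8.79 FPKM), and 3 in SKOV3, BIK (0.34 against 4.68 FPKM), PMAIP1 (17.6 against 61.1 FPKM) and BAK1 (11.7 against 37.5 FPKM).

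Signalling outputs were mixed by pathway. For MAPK, the feedback and output genes were mostly higher in HeyC2, 15 of 28 (53.6%) against 6 (21.4%), beside 13.9% and 24.0% of all genes. Their median was 1.33 (centred 1.6). The Sprouty inhibitors SPRY2 (87.5 against 8.94 FPKM) and SPRY4 (78.4 against 9.19 FPKM), the phosphatase DUSP6 (50.9 against 10.5 FPKM) and the ETS factors ETV4 (44.6 against 7.22 FPKM) and ETV5 (54 against 8.1 FPKM) were on the HeyC2 side. The immediate early genes EGR1 (2.46 against 467 FPKM), FOS (12.4 against 253 FPKM) and JUNB (43.8 against 289 FPKM) and the transcription factor MYC (27.4 against 69.4 FPKM) were on the SKOV3 side. The TET1 libraries kept 10 of the 15 HeyC2 genes and 1 of the 6 SKOV3 genes. Of 26 YAP/TEAD targets, 9 were higher in HeyC2, with CYR61 (644 against 204 FPKM) and CTGF among them, and 6 in SKOV3, with IGFBP3 (0.83 against 248 FPKM) and ANKRD1 (0.07 against 16.5 FPKM). The YAP/TEAD shares were 34.6% and 23.1%, beside 13.9% and 24.0% of all genes. In the TGF-beta and BMP group, 10 of 27 were higher in HeyC2 and 11 in SKOV3. The HeyC2 members included the ligand INHBA, the receptor TGFBR2 (83.5 against 17 FPKM) and the antagonists NOG (13 against 0.25 FPKM) and FST (5.37 against 0.07 FPKM). The SKOV3 members included the BMP target genes ID1 (40.3 against 1232 FPKM), ID2 (0.34 against 48.6 FPKM), ID3 (5.16 against 321 FPKM) and ID4 (0.04 against 79.8 FPKM) and the inhibitory SMAD6 (1.3 against 52.3 FPKM) and SMAD7 (2.74 against 37.4 FPKM). ID1 was less than 2-fold apart in the TET1 libraries, at 225 against 335 FPKM.

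In the Wnt group 9 of 26 genes (34.6%) were higher in HeyC2 and 8 (30.8%) in SKOV3, beside 13.9% and 24.0% of all genes. WNT5B, the receptor LGR5 (10.9 against 0.03 FPKM) and the nuclear factor TCF7 (20.2 against 1.49 FPKM) led the HeyC2 side. WNT7B (0.76 against 38.4 FPKM), the inhibitor DKK3 (1.74 against 60.3 FPKM) and WNT9A (0.88 against 9.62 FPKM) led the SKOV3 side. In the TET1 libraries 4 of the 9 and 4 of the 8 were again at least 2-fold higher in the same line. For 2 members the 2-fold difference was opposite there. In the Notch group 6 of 12 were higher in SKOV3, including the ligands JAG1 (3.61 against 19.9 FPKM) and JAG2 (0.49 against 25.2 FPKM) and the target HES1 (13.5 against 148 FPKM), and 3 in HeyC2, including NOTCH2 (68.4 against 16.4 FPKM). In the IGF group 4 of 13 genes (30.8%) were higher in HeyC2 and 4 (30.8%) in SKOV3. IGFBP4 (252 against 0.95 FPKM) was a HeyC2 gene and IGFBP3 a SKOV3 gene. IGF2BP3 (27.8 against 5.16 FPKM) and IGF2BP2 (117 against 29.1 FPKM), RNA-binding proteins of fetal tissue, were higher in HeyC2.

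Of 30 NF-kB cytokines and targets, 10 (33.3%) were higher in HeyC2 and 9 (30.0%) in SKOV3, beside 13.9% and 24.0% of all genes. Their median was -0.041 (centred 0.23). In the TET1 libraries the median was 1.02 (centred 1.35), and 9 of the 10 HeyC2 genes but 1 of the 9 SKOV3 genes were again at least 2-fold higher in the same line. The cytokines IL1B, IL1A (31.1 against 3.06 FPKM), IL6 (16.3 against 2.22 FPKM) and CSF3 and the pattern recognition molecule PTX3 (22.2 against 0.24 FPKM) were on the HeyC2 side. The neutrophil chemokines CXCL1 (25.1 against 151 FPKM) and CXCL2 (2.08 against 15.7 FPKM), the iron-binding LCN2 (0 against 30.5 FPKM) and the superoxide dismutase SOD2 (61.5 against 159.6 FPKM) were on the SKOV3 side. The chemokine CXCL1 was at 53.7 against 44.8 FPKM and SOD2 at 115 against 60.6 FPKM in the TET1 libraries. Among 36 interferon-stimulated genes, 12 were higher in HeyC2, including OAS1 (9.34 against 0.76 FPKM), GBP2 (7.9 against 0.75 FPKM) and IRF9 (24.1 against 4.58 FPKM), and 8 in SKOV3, including BST2 (1.26 against 87.2 FPKM), HERC5 (0.12 against 19.6 FPKM) and IFI27 (1.14 against 16.7 FPKM). The interferon shares were 33.3% and 22.2%, beside 13.9% and 24.0% of all genes. OAS1 was reversed in the TET1 libraries, at 0.23 against 3.53 FPKM, and 3 of the 12 HeyC2 genes were again 2-fold higher there. In antigen presentation, B2M (1007 against 830.2 FPKM) was abundant in both lines, the immunoproteasome subunit PSMB8 (12.6 against 47.2 FPKM) was on the SKOV3 side and the peptidases ERAP1 (13.1 against 2.83 FPKM) and ERAP2 (39.9 against 16.7 FPKM) on the HeyC2 side. Of 10 complement genes, the membrane regulators CD46 (363 against 57.3 FPKM) and CD55 (96.5 against 27.1 FPKM) were higher in HeyC2, and 7 others, including C3 (20.4 against 42.5 FPKM), CFB (0.22 against 13.5 FPKM) and CFD (3.1 against 23.9 FPKM), in SKOV3.

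The enzymes of DNA methylation were compared because TET1 was the study's transgene. TET1 was below 1 FPKM in both controls, at 0.20 against 0.43 FPKM, or about 14 and 29 fragments. TET2 (2.36 against 2.78 FPKM) and TET3 (2.83 against 4.4 FPKM) differed less than 2-fold. The maintenance methyltransferase DNMT1 (24.5 against 81.5 FPKM) and its partner UHRF1 (11.9 against 42.1 FPKM), both tied to replication, and the glycosylase TDG (4.62 against 16.1 FPKM) were higher in SKOV3, and IDH1 (75.7 against 27.7 FPKM) and APOBEC3B (20.0 against 6.82 FPKM) in HeyC2. None of these 5 differences was again 2-fold the same way in the TET1 libraries, where DNMT1 was at 20.6 against 39.2, UHRF1 at 14.4 against 15.6, TDG at 6.66 against 12.3 and IDH1 at 70.3 against 53.2 FPKM. APOBEC3B, which has near-identical paralogs, was reversed in the TET1 libraries at 3.88 against 8.78 FPKM. Among 23 SWI/SNF and Polycomb genes, SUZ12 (5.91 against 30.8 FPKM), EZH2 (3.87 against 19.9 FPKM), EED (4.55 against 12 FPKM), SMARCA4 (26.9 against 66.4 FPKM) and BRD7 (20.1 against 60.3 FPKM) were higher in SKOV3 and SMARCC1 (13.8 against 2.35 FPKM), KDM6B (7.57 against 1.38 FPKM) and CBX7 (12.4 against 5.17 FPKM) in HeyC2, and ARID1A (15.3 against 18.5 FPKM) differed less than 2-fold. The TET1 libraries kept 4 of the 5 SKOV3 genes and 0 of the 3 HeyC2 genes of that group. The CK2 subunits, the kinase named in the title of the series, stood at 30.4 against 51.4 FPKM for CSNK2A1, 23.6 against 36.9 for CSNK2A2 and 85.9 against 90.7 for CSNK2B, all under 2-fold.

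Positional and germline genes gave small groups. Of 23 HOX genes, 8 were higher in HeyC2, such as HOXB4 (38.1 against 14.9 FPKM) and HOXA10 (9.35 against 2.83 FPKM), and 5 in SKOV3, such as HOXB8 (4.49 against 36.9 FPKM) and HOXA13 (0.69 against 4.09 FPKM). The HOX shares were 34.8% and 21.7%, beside 13.9% and 24.0% of all genes. The highest HOX genes of both lines were in the HOXB cluster, where HOXB2 (88.8 against 108 FPKM) and HOXB6 (70.2 against 114 FPKM) differed less than 2-fold. Of 38 cancer-testis antigens only PRAME (0.07 against 14.8 FPKM) and SPANXB1 (0 against 38 FPKM) passed the filter, both on the SKOV3 side, and the other 36 were at or below 1.56 FPKM in both lines. Of 13 imprinted genes, 9 differed less than 2-fold, among them GNAS (649.8 against 664 FPKM). The 3 higher in HeyC2 (23.1%, beside 13.9% of all genes) included SNRPN (20.2 against 7.41 FPKM) and GRB10 (9.49 against 3.59 FPKM). In the TET1 libraries 0 of these 3 were again at least 2-fold higher in HeyC2. Of 8 stemness genes 3 were higher in HeyC2, the aldehyde dehydrogenase ALDH1A3 (642 against 13.5 FPKM), CD44 and LGR5, and 3 in SKOV3, MYC among them.

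The respiratory chain complexes had medians close to that of all genes. For complex I, the first enzyme of the respiratory chain, 32 of 37 subunits differed less than 2-fold (median -0.23, centred 0.038), and for complexes II to V 39 of 43 (median -0.27, centred -0.0074). UQCRH, a subunit of complex III, had the largest ratio of these complexes, at 204 against 1.02 FPKM in the controls and 203 against 1.0 in the TET1 libraries. Its intronless copy UQCRHL was listed at 0 against 0, and reads of these 2 genes cannot be told apart with certainty. Of 29 genes of glycolysis and glucose uptake, 7 were higher in HeyC2, led by the glucose transporter SLC2A3 (76.3 against 0.04 FPKM) and PFKM (31.1 against 5.27 FPKM), and 8 in SKOV3, led by ALDOC (0 against 16.8 FPKM) and HKDC1 (0.92 against 25 FPKM) and including LDHA (333 against 1559.6 FPKM) and ALDOA (779 against 2026 FPKM). The glycolysis shares were 24.1% and 27.6%, beside 13.9% and 24.0% of all genes. GAPDH was 2.41-fold higher in HeyC2 in the controls but not in the TET1 libraries, whereas PGK1 (312 against 361 FPKM), TPI1 (728 against 615 FPKM) and PKM (878 against 1124 FPKM) differed less than 2-fold in the controls. Of 32 genes of the TCA group 7 were higher in SKOV3, near the 24.0% of all genes, and 3 in HeyC2, SUCLG2 (62.2 against 21 FPKM) among the latter. Of 31 assembly factors of the respiratory chain 6 were higher in SKOV3, COX17 (13.8 against 113 FPKM) by the most, and 2 in HeyC2. Of 15 regulators of mitochondrial biogenesis 3 were higher in SKOV3, PPARGC1A (0 against 4.29 FPKM), POLRMT (23.2 against 76.3 FPKM) and SIRT1 (3.95 against 9.87 FPKM), and 0 in HeyC2. These shares too were near or below those of all genes.

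Among 39 antioxidant genes, 14 were higher in SKOV3, with PRDX2, SOD3 (0.10 against 16.3 FPKM), GSR (12.7 against 58.7 FPKM), SLC7A11 (7.44 against 34.4 FPKM) and the ferritin chain FTH1 (1989 against 8292 FPKM), and 3 in HeyC2, GPX3 (43.8 against 0.09 FPKM), GPX8 (37 against 12.4 FPKM) and PRDX5 (391 against 188 FPKM). The antioxidant shares were 35.9% and 7.69%, beside 24.0% and 13.9% of all genes. Of 27 cholesterol genes, 10 were higher in HeyC2 and 3 in SKOV3, with STARD4 (142 against 9.53 FPKM), EBP (48.3 against 3.0 FPKM) and INSIG1 (82.8 against 24.9 FPKM) on one side and SC5D (7.96 against 46.5 FPKM) on the other (median 0.71, centred 0.98). In fatty acid metabolism HeyC2 had more of the desaturase SCD (328 against 78.2 FPKM) and of ACSL5 (14.5 against 0.27 FPKM), and SKOV3 more of CPT1A (0.11 against 18.3 FPKM) and ACACA (7.2 against 25.1 FPKM). The amino acid transporter SLC7A5 (16 against 424 FPKM) and its partner SLC3A2 (54.8 against 369 FPKM) were SKOV3 genes, while STC2 (73.8 against 0.46 FPKM), CARS (73.4 against 12.4 FPKM) and PHGDH (81.3 against 25.5 FPKM) of the same ATF4 group were HeyC2 genes. The median of that group of 31 was 0.25 in the controls and -1.28 in the TET1 libraries, and 1 of its 8 HeyC2 genes was again at least 2-fold higher there, with CARS at 54 against 45.4 FPKM. Of HIF targets outside glycolysis, the carbonic anhydrases CA12 (1.52 against 40.8 FPKM) and CA9 (0 against 6.42 FPKM) were on the SKOV3 side with HIF1A (60.0 against 242 FPKM) itself, and PLOD2 (92.8 against 16 FPKM) and NDRG1 (182 against 59.5 FPKM) on the HeyC2 side. Of 12 drug transport and resistance genes, 8 differed less than 2-fold. The major vault protein MVP (173 against 65.7 FPKM) was higher in HeyC2 and the tubulin TUBB3 (18.8 against 58.8 FPKM) in SKOV3. ABCB1, the efflux pump, did not pass the filter, at 1.76 against 0.09 FPKM. It was at 0.87 against 1.16 FPKM in the TET1 libraries.

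Metallothioneins, which bind zinc and copper, were higher in HeyC2 for 4 of 5, with MT2A (6812 against 1307 FPKM) and MT1X (284 against 56.9 FPKM) beside MT1L and MT1E. These genes are near-identical copies of each other, so their single values are uncertain. Of 12 S100 genes, 6 were higher in SKOV3, with S100A3 (5.63 against 55.4 FPKM) and S100A2 (22.7 against 119.98 FPKM) beside S100A4, and S100A6 (1814 against 1989 FPKM), the most abundant, differed less than 2-fold. S100A3, S100A4 and S100A5 lie next to each other and partly overlap, so reads could be shared.

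Of 76 cytosolic ribosomal protein genes, 18 (23.7%) were at least 2-fold higher in HeyC2, beside 13.9% of all genes, and 0 in SKOV3. A ratio above 1 was found for 70, and the median was 0.71 (centred 0.98). RPL26 (1783 against 398 FPKM) and RPL5 (1085 against 351 FPKM) had the largest ratios. Together these genes took 18.9% of the summed FPKM in HeyC2 and 12.3% in SKOV3. Ribosomal protein genes have many processed copies, so single values are uncertain. Mitochondrial ribosomal proteins had 12 of 76 higher in SKOV3 and 0 in HeyC2 (median -0.43, centred -0.16), and proteasome subunits 7 of 34 (median -0.72, centred -0.45). These shares lay below the 24.0% of all genes.

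The ratios were also ordered along the chromosomes. GENCODE annotation on GRCh37 placed 11592 protein-coding genes that passed, and the medians of 41 chromosome arms are given relative to the median of these genes, -0.27. Arms with the highest values were 7p (1.0, 182 genes), 17p (0.98, 197 genes) and 12p (0.97, 143 genes), where 86.81%, 87.82% and 76.92% of genes lay above that median. The lowest were 20p (-0.71), 8p (-0.66) and 4p (-0.51). In the TET1 libraries the values were 0.81 for 7p, 0.35 for 17p, 0.19 for 12p, -0.55 for 20p, -0.74 for 4p and 0.029 for 8p. There 8p lost its low value, and 17p and 12p stood below 13q (0.66) and 5q (0.53). The value of 20p was above those of 4p, 9p (-0.65), 22q (-0.58), 19q (-0.58) and 18q (-0.56). The sign was shared by both pairs of libraries for 34 of 41 arms. In windows of 50 successive genes, the lowest median relative to the same value was -1.4 on chr19:50691443-54083523, from MYH14 to ZNF331, where 36 of the genes passed 2-fold toward SKOV3, MYH14 (0 against 10.8 FPKM) by the most.

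**Figure D5:**
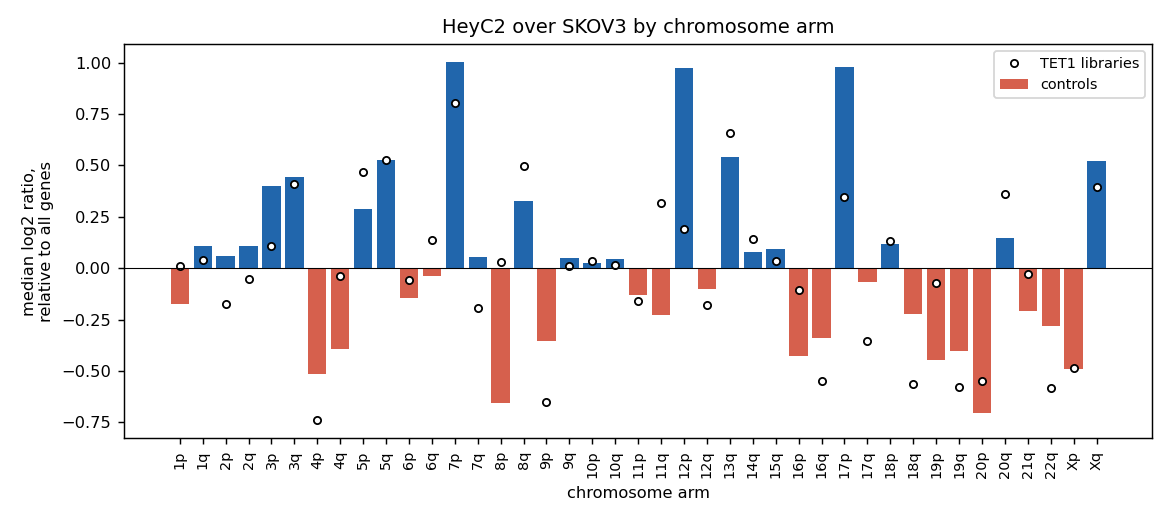
Median log2 ratio of HeyC2 over SKOV3 of the protein-coding genes of each chromosome arm, relative to the median of all of them. Bars are the control libraries, blue above and red below 0, and open circles the TET1 libraries. The bars of 7p, 12p and 17p are the highest at 1.0, 0.97 and 0.98, and that of 20p is the lowest at -0.71.

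Genes present in one line and listed at 0 in the other were unevenly split. At 10 FPKM or more in one control and 0 in the other there were 22 HeyC2 genes and 71 SKOV3 genes. Over all symbols, 11344 were listed at 0 in HeyC2 and 10357 in SKOV3. The HeyC2 genes were led by CSF3 and KRTAP2-3 (54.8 against 0 FPKM), and included the G protein GNA15 (46.2 against 0 FPKM) and the transcription factors TBX3 (19.7 against 0 FPKM) and FOXF1 (14.3 against 0 FPKM). All 22 of them stayed below 1 FPKM in the SKOV3 TET1 library. The SKOV3 genes were led by PRDX2, PPP1R1B, PLPP2 (0 against 118 FPKM) and OCIAD2 (0 against 100.2 FPKM), and included MGMT, LCN2, the ephrin EFNA1 (0 against 28.6 FPKM) and CRB3. Of these 71, 67 stayed below 1 FPKM in the HeyC2 TET1 library, and 17 lie on chromosome 19. Of the 11592 placed protein-coding genes that passed, 391 lie on 19p and 460 on 19q.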

How the data were processed

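Total RNA of 4 cell cultures was sequenced by the authors as paired ends from TruSeq libraries on a HiSeq-4000. Per the labels, reads were aligned to hg19 with Bowtie2 2.2.6 and quantified with RSEM 1.2.17. The deposited values are FPKM per gene symbol, in 1 table per line and with no counts. The authors had rescaled the TET1 columns to equal GAPDH in each line, by 3.23 in HeyC2 and 1.35 in SKOV3, and these factors, found from the steps of the values, were divided out. The control columns were not rescaled. Depth was not given. It was estimated from the spacing of low values as 6620343 to 7509337 fragments a library, with a fragment length of 175 bases assumed, and all intervals (95%, Clopper-Pearson) rest on it and cover counting error only.

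The 2 control columns were joined by symbol. Log2 ratios used a pseudocount of 1, which understates differences of low genes, and a mean of at least 1 FPKM. The ratios, the filter and the 2-fold calls were tested on simulated data (Python 3.11.15, pandas 2.3.3). For the GAPDH factors only a simplified form of the search was tested. The depth estimate, on which the fragment numbers and intervals rest, was not tested on simulated data. The lists of genes and the rule for genes named in the text, which took per list the 4 largest ratios in each direction, the highest levels and defining members, were chosen with earlier results of these data known. Further genes named beyond that rule and the promoters shown were picked after values were seen. Some list members and 1 list are not reported here. Symbols were placed with GENCODE v44 on GRCh37. TruSeq reads were not stated to carry strand, so overlapping genes on opposite strands cannot be told apart. Alternatives were 2 other pseudocounts, 2 filters, 3 scalings, 2 thresholds and the TET1 libraries.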

Additional observations from a re-analysis of the deposited data

Results flagged for a closer look

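5 genes named in the text were at least 2-fold apart in one direction in the controls and at least 2-fold apart in the other direction in the TET1 libraries of the same lines. The difference between the pairs was not tested, since each line had 1 library of each kind. KRT7 had a log2 ratio of -2.4 in the controls and 5.62 in the TET1 libraries, where the SKOV3 library held 22 FPKM against 1537 in its control. F3 had -3.86 and 2.28, OAS1 2.55 and -1.88, PHGDH 1.63 and -1.42, and APOBEC3B 1.42 and -1.0. The levels of PHGDH, an enzyme of serine synthesis, were 81.3 against 25.5 FPKM in the controls and 28.7 against 78.2 in the TET1 libraries. Over all genes, 26 of 1741 and 23 of 3001 were opposite in this way.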

How the results depend on the processing

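No paired analysis was possible because each line had 1 control library and the labels carry no replicate numbers. For the same reason no library could be left out. Of all different genes, 1741 and 3001 at 2-fold, a threshold of 1.5-fold gave 2736 in HeyC2 and 4725 in SKOV3, and 4-fold gave 654 and 985. Under the other 8 alternatives both counts stayed within 1.5 times. The median of all genes was -0.15 with upper quartile scaling and 0 by construction when centred.

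The group medians kept their sign under every alternative tried, except the keratins, at 0.70 in the TET1 libraries, and the fibroblast and smooth muscle markers, at -0.10 without a filter. This covers the groups whose median was at least 2-fold. The ovarian and Müllerian median, -2.96, was -3.43 with a pseudocount of 0.1, -3.45 with a pseudocount of 0.01, -0.35 with no filter, -3.39 with rescaling to a common sum and -1.68 with the TET1 libraries. The epithelial median, -2.4, was -4.13 with a pseudocount of 0.1, -4.55 with a pseudocount of 0.01, -1.81 with no filter, -3.55 with a filter at a mean of 5 FPKM and -3.1 with rescaling to a common sum. The mesenchymal median, 1.2, was 1.0 with no filter and 1.47 with centring. The mitosis and replication median, -1.92, was -1.65 with centring. The ribosomal protein median, 0.71, was 0.98 with centring, 0.84 with upper quartile scaling and 0.92 with the TET1 libraries.

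Of the named genes past 2-fold, those with the opposite sign in the TET1 libraries were APOBEC3B (-1.0), C3 (0.15), CBX7 (-0.025), CXCL1 (0.26), EED (0.063), EPHA4 (-0.11), F3 (2.28), FTH1 (0.33), GRB10 (-0.50), JUNB (0.039), KDM6B (-0.13), KRT19 (0.83), KRT7 (5.62), OAS1 (-1.88), PDGFB (-0.39), PHGDH (-1.42), SOD2 (0.91) and SOX9 (-0.51). Levels below 1 FPKM limit what can be read, and a lower value there rests on few fragments. The cause of these changes was not tested.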

Other observations

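Zinc finger genes on chromosome 19, which encode a large family of DNA-binding repressors, were lower in HeyC2. This group was chosen after its values were seen, by symbols beginning with ZNF, ZSCAN, ZFP or ZIM. On 19p, 44 of 54 such genes that passed were at least 2-fold higher in SKOV3 and 0 in HeyC2, and 16 were listed at 0 in HeyC2 and 0 in SKOV3. On 19q the counts were 84 and 1 of 144. On the other chromosomes they were 49 and 11 of 220 (22.3% higher in SKOV3), near the share of all genes. The other genes of 19q had 26.6% higher in SKOV3. Relative to all protein-coding genes the medians were -1.45, -0.90 and -0.12 in the controls and -0.90, -1.22 and -0.32 in the TET1 libraries. These genes are close copies of each other and are expressed at low levels, and their part in the result of the 19q window was not tested.

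2 genes that many cells use were listed at 0 in HeyC2. GLUL, which encodes glutamine synthetase, was at 0 against 1.52 FPKM and PLIN2, a lipid droplet protein, at 0 against 0.08 FPKM. For this reason values of 0 elsewhere are given as listed and not as absence.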
